A study of Homo sapiens with 59 samples.

Results

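A549 cells, a human epithelial lung carcinoma line, were treated for 24 h with an ethanol extract of Bupleuri Radix at its high dose of 190 µg/mL (3 libraries) or with DMSO vehicle (3 libraries), and strand-specific mRNA libraries were sequenced. These 6 libraries were taken from a series of 59 in which A549 cells received 8 herbal medicines at up to 3 doses each. The same extract was also given at 7.6 µg/mL and 38 µg/mL (3 libraries each), and these doses are used here to place the high dose. The series text sets the high dose at 500 µg/mL or, for an extract with a lower IC20 (the concentration of 20% inhibition), at that IC20, so 190 µg/mL is an inhibitory dose and the lower doses are dilutions of it. The sample labels give 0.1% DMSO for vehicle and the series text gives 2%. A549 is a single cancer line, and the labels do not say whether replicates were grown apart, so the p-values speak only of the variation among these libraries, which may be technical. The question of the comparison is which genes the high dose changed. Of the 60675 genes in the deposited table, 16439 had enough counts to be tested.

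Bupleuri Radix is the dried root of Bupleurum species, a herb of East Asian medicine known for triterpenoid saponins, the saikosaponins. Lysosomes break down the content delivered by endocytosis and autophagy, and their genes are under shared control of the basic helix-loop-helix factors TFEB, TFE3 and MITF, which bind a short palindromic DNA element. The Rag GTPases and the folliculin complex at the lysosomal surface decide whether these factors stay in the cytoplasm or enter the nucleus. The aryl hydrocarbon receptor (AhR) is a ligand-activated factor that induces cytochrome P450 genes, and SREBP factors induce the enzymes of cholesterol synthesis when membrane sterol is low.

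The 6 libraries held 19320259 to 27975489 expected counts each. Epithelial keratins were abundant in all of them, KRT8 at 2499.9 ± 70.9 CPM (counts scaled to library size) in high-dose libraries and 3525 ± 74.5 CPM in vehicle libraries (SD, n = 3 each), as the label of an epithelial line asks. The lung type II genes SFTPB, SFTPC and NKX2-1 had too few counts to be tested. Of 17 markers of other cell types, CD3E and MYH7 had no count in any of the 6 libraries and 11 others had at most 8. Their summed level was 30.2 to 37.1 CPM at the high dose and 36.9 to 39.3 CPM in vehicle, most of it from COL1A1. The sample titles place the vehicle and Bupleuri Radix libraries in the same batch, Second_BatchD. The labels also give the libraries a code whose first number is 13 for Bupleuri Radix at every dose, while vehicle has a code of its own. Libraries that share this part of the code are called a library set here, and the labels do not say what it stands for. A difference from vehicle that all 3 doses share cannot be told apart from a difference between these library sets. The high dose against the 7.6 µg/mL dose stays within set 13, and its values are given beside the main results. On the first principal component, with 21.4% of the variance, vehicle lay at -30.7 to -21.04, the low and medium doses at -0.18 to 9.95 and the high dose at 10.94 to 20.75.

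Against vehicle, the high dose raised 2208 genes and lowered 2103 at an adjusted p below 0.05, which is 26.2% of the genes tested (13.4% higher and 12.8% lower). Genes called in this way are referred to as having risen or fallen. Most of these changes were small: 140 genes rose and 65 fell at least 2-fold, 0.852% and 0.395% of the genes tested. The median log2 fold change over all tested genes was 0.01. In bulk RNA such as this, fewer cells of a kind and less RNA per cell cannot be told apart. The largest rises among genes with a mean of at least 5 CPM in either group included lysosomal genes and UAP1L1, a relative of an amino-sugar enzyme. EIF3CL and UQCRFS1P1 were also among them, but neither was called between the high and the low dose. The AhR target CYP1A1 had a log2 fold change of 1.96 at a mean below 5 CPM. The largest falls included fibrinogen, keratin and NR4A receptor genes. Within the set, the high dose differed from the low dose in 1622 genes, 9.87% of those tested (5.6% higher and 4.26% lower). The low dose differed from vehicle in 2001 genes or 12.2% (5.33% higher and 6.84% lower), and the medium dose in 2053 or 12.5% (5.81% higher and 6.68% lower). Counts of list members given below are to be read beside these shares of all tested genes. The lists were chosen with earlier results of these data known, so their counts are descriptions. The count for the high dose against vehicle was 624 when all 59 libraries shared 1 estimate of spread and 2623 when 4 libraries of other extracts were left out of that estimate.

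UAP1L1 had the largest rise among genes without a near copy whose libraries did not overlap and whose mean reached 5 CPM in either group. It is a paralog of UAP1, the enzyme that makes UDP-N-acetylglucosamine, the activated sugar used to build glycans. UAP1L1 (ENSG00000197355, chr9:137077501-137084539) had 28.4, 25.0 and 24.8 CPM in the high-dose libraries, against 4.92, 5.75 and 5.53 CPM in the vehicle libraries. The high-dose libraries were all at least 4 times the highest vehicle library, and the log2 fold change was 2.27 ± 0.08 (standard error; adjusted p = 4.61e-12). At 7.6 and 38 µg/mL it averaged 6.55 and 6.84 CPM, close to vehicle, and the log2 fold change of the high over the low dose was 1.99 ± 0.08 (adjusted p = 2.84e-11). Other enzymes that turn over N-acetylglucosamine moved the same way. GNPDA1, glucosamine-6-phosphate deaminase, averaged 121 ± 1.88 CPM at the high dose and 61.5 ± 4.28 CPM in vehicle, and AMDHD2, which deacetylates N-acetylglucosamine-6-phosphate, 17.2 ± 0.916 and 10.1 ± 0.444 CPM. Over the low dose their log2 fold changes were 1.14 and 0.87. Of 12 tested enzymes of the hexosamine path, a list put together after the values had been seen, 4 rose and 3 fell against vehicle, and 5 rose and none fell against the low dose. The low dose against vehicle had none higher and 4 lower. Leaving out high-dose replicate 1 or 2 or vehicle replicate 1 or 2 left 1 of the 3 falls at the high dose against vehicle. The rate-limiting enzyme GFPT1 (-0.02) and UAP1 itself (-0.02) had log2 fold changes near 0 and were not called.

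Among the other largest rises, EGR1, an immediate early zinc-finger factor, had 5.13, 6.85 and 3.65 CPM in the high-dose libraries, against 1.10, 1.41 and 0.930 CPM in vehicle. The high-dose libraries differed almost 2-fold among themselves. CD68, a glycoprotein of late endosomes and lysosomes that is best known from macrophages, had 21.8, 28.3 and 17.8 CPM at the high dose, against 6.37, 5.75 and 6.57 CPM in vehicle (log2 fold change 1.87 ± 0.14). MCTP1, a calcium-binding membrane protein with C2 domains, had 15.8, 19.4 and 13.9 CPM at the high dose, against 4.96, 4.62 and 4.91 CPM in vehicle. Genes of this paragraph were chosen with a rule that asked for libraries without overlap, as 12.9% of all tested genes had together with a call higher. Over the low dose EGR1, CD68 and MCTP1 had log2 fold changes of 1.79, 1.40 and 1.49. HSD17B14, a hydroxysteroid dehydrogenase, averaged 10.7 ± 1.48 CPM at the high dose, against 4.12 ± 0.160 CPM in vehicle. RAP1GAP, which switches off the small GTPase RAP1, had 59.8, 54.9 and 63.2 CPM, against 22.4, 21.2 and 25.5 CPM in vehicle. CDCP1, a transmembrane protein phosphorylated by SRC kinases, averaged 11.0 ± 2.31 CPM, against 4.27 ± 0.602 CPM in vehicle. Each of these 3 genes was called against the low dose as well, with log2 fold changes of 1.27, 0.95 and 1.25.

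**Figure D1:**
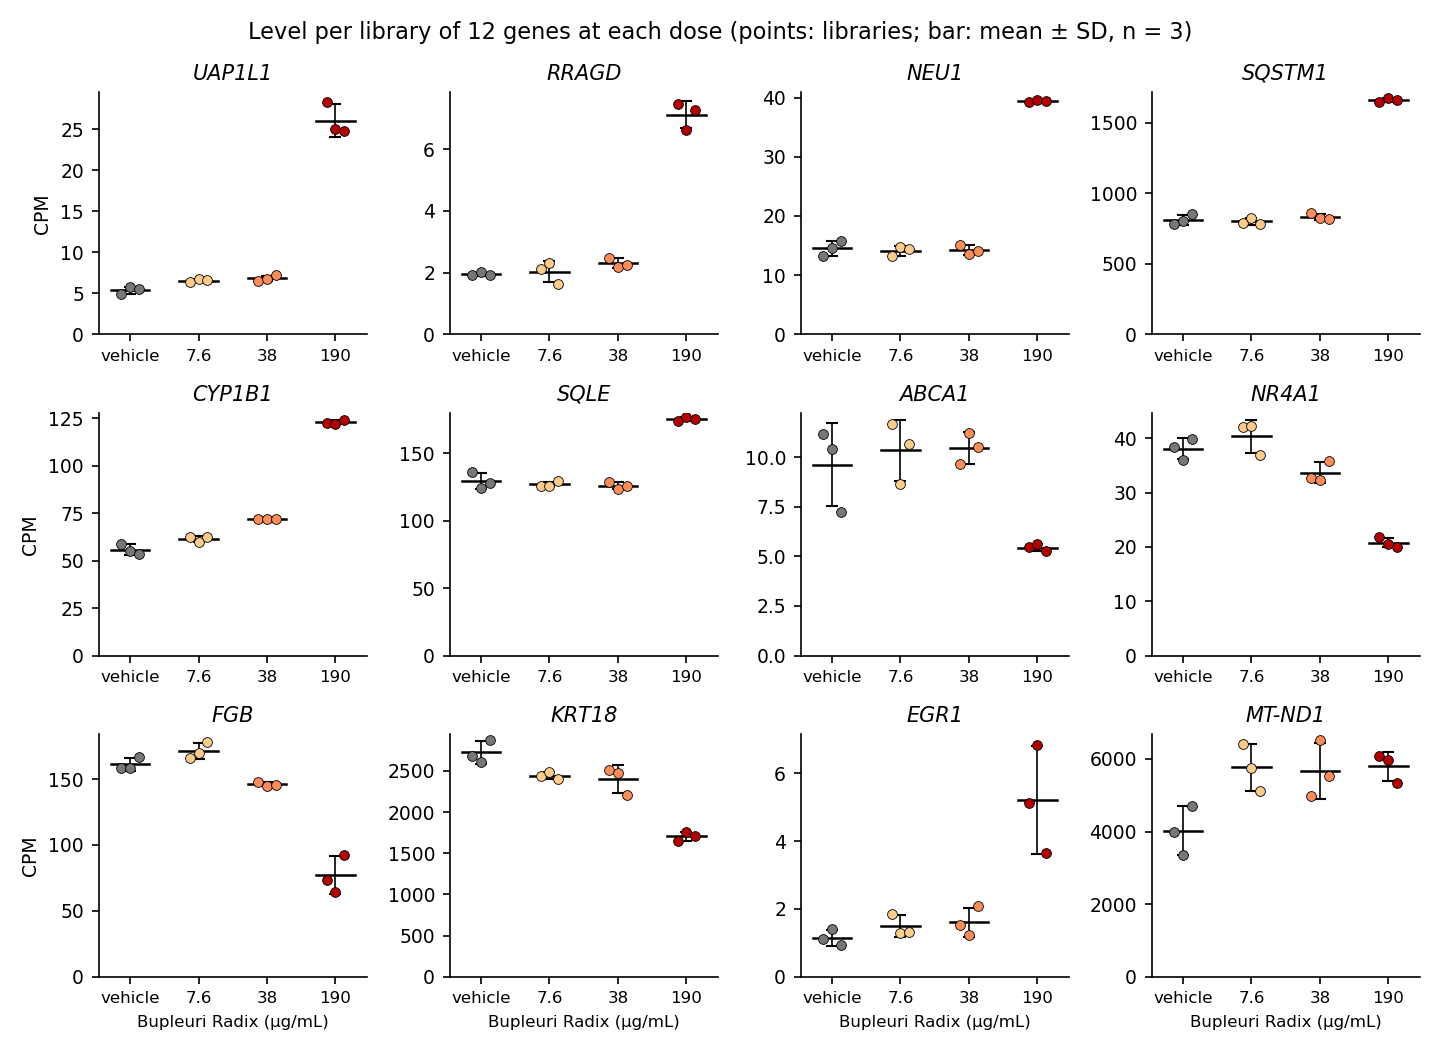
CPM per library (vertical) of 12 genes in vehicle and at 7.6, 38 and 190 µg/mL Bupleuri Radix (horizontal); points are libraries and bars are the mean ± SD of 3. Most genes differ from vehicle at 190 µg/mL and little at the lower doses, while MT-ND1 is as high at 7.6 µg/mL (5766 CPM) as at 190 µg/mL (5802 CPM).

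Most members of the lysosome and autophagy list, which was chosen with earlier results of these data known, rose. Of 26 tested members, 20 rose and 1 fell, and the median log2 fold change was 0.42, beside 0.01 over all tested genes. Against the low dose 19 rose and 1 fell, with a median of 0.39, and the low dose against vehicle had none higher and 2 lower. RRAGD, 1 of the 4 Rag GTPases that carry the amino acid signal to mTORC1, had 7.47, 6.63 and 7.26 CPM in the high-dose libraries, against 1.93, 2.01 and 1.91 CPM in vehicle. FLCN, folliculin, which with FNIP1 or FNIP2 activates RRAGC and RRAGD, had 56.0, 49.9 and 52.1 CPM at the high dose, against 25.3, 25.8 and 25.1 CPM in vehicle. SQSTM1, the autophagy receptor p62 (ENSG00000161011, chr5:179806398-179838078), had 1646, 1670.1 and 1661 CPM at the high dose, against 782, 805 and 849.8 CPM in vehicle. All 3 roughly doubled or more with no overlap between the groups, at log2 fold changes of 1.86 ± 0.13, 1.05 ± 0.05 and 1.03 ± 0.04, and at 7.6 and 38 µg/mL their means stayed within 0.5 CPM of vehicle for RRAGD and FLCN. SQSTM1 averaged 800.1 CPM at 7.6 µg/mL and 830.1 CPM at 38 µg/mL. The folliculin partner FNIP1 (64.1 ± 2.37 CPM at the high dose, 28.7 ± 1.49 CPM in vehicle) rose with a log2 fold change of 1.16 ± 0.06. Over the low dose RRAGD, FLCN, SQSTM1 and FNIP1 had log2 fold changes of 1.81, 1.08, 1.05 and 1.10. Against vehicle RRAGC rose by 0.72 ± 0.06 and FNIP2 by 0.44 ± 0.08, while RRAGA (-0.03) and RRAGB (0.12), their partner GTPases, were not called. Of the factors themselves, TFEB (-0.18) and TFE3 (0.10) were not called and MITF fell (-0.30 ± 0.09). Of 15 genes of the Rag, folliculin and MiT/TFE list, drawn up after the values had been seen, 6 rose and 3 fell, and against the low dose 7 rose and 1 fell. None of the 3 falls was called without high-dose replicate 1 or 2, and 1 without vehicle replicate 3.

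The enzymes and membrane proteins inside this group were counted by role in lists drawn up after the values had been seen, so their counts are descriptions. Of 22 glycosidases and sulfatases, 11 rose and none fell. NEU1, the lysosomal sialidase (ENSG00000204386, chr6:31857659-31862906), had 39.3, 39.6 and 39.4 CPM in the high-dose libraries, against 13.3, 14.6 and 15.8 CPM in vehicle. The high-dose libraries lay within 1 CPM of each other and the log2 fold change was 1.44 ± 0.07 (adjusted p = 1.12e-10), and 1.48 ± 0.06 over the low dose. Of 22 proteases and lipases, 10 rose and none fell, led by the cysteine protease cathepsin L (CTSL, 357 ± 9.35 CPM at the high dose and 195 ± 7.89 CPM in vehicle; 0.84 over the low dose on the log2 scale). The tripeptidyl peptidase TPP1 averaged 94.7 ± 3.32 CPM at the high dose and 53.6 ± 0.652 CPM in vehicle. Cathepsin D (CTSD), an aspartic protease, averaged 282 ± 5.29 CPM at the high dose and 197 ± 12.4 CPM in vehicle. Of 19 membrane proteins and channels, 11 rose and 1 fell. CLCN7, the lysosomal chloride and proton exchanger, averaged 84.0 ± 1.86 CPM at the high dose and 49.0 ± 1.28 CPM in vehicle, and the cholesterol carrier NPC2 averaged 71.0 ± 4.61 and 42.9 ± 2.49 CPM. The cystine exporter CTNS had a log2 fold change of 0.81 ± 0.06, and the sialic acid exporter SLC17A5 one of 0.78 ± 0.09. The proton pump followed with smaller changes: of 20 tested V-ATPase subunits 10 rose and 1 fell, with ATP6V0C highest (0.38 ± 0.06). Autophagy genes were mixed, with 8 of 24 higher and 3 lower, beside 13.4% higher and 12.8% lower over all tested genes. UVRAG (0.51 ± 0.06) and WIPI1 (0.49 ± 0.12) rose, MAP1LC3B was not called (0.04) and GABARAPL1 fell (-0.19 ± 0.07). Against the low dose the same lists had 8, 9, 11, 12 and 5 members higher and none, none, 1, none and 1 lower. The low dose against vehicle had 3, 2, 1, none and 1 higher and none, none, 2, 4 and 1 lower. With all 59 libraries in the fit 12 of the 26 lysosome and autophagy members were called higher, and with 55 libraries 17. For the lists by role the same fits called 8 and 10 glycosidases, 5 and 7 proteases, 6 and 10 membrane proteins, 1 and 5 V-ATPase subunits and 2 and 6 autophagy genes higher. Without high-dose replicate 3 or vehicle replicate 1, 6 of the proteases and lipases rose, and without high-dose replicate 1 or 2 or vehicle replicate 3, 1 of the 3 autophagy genes that fell was called.

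**Figure D2:**
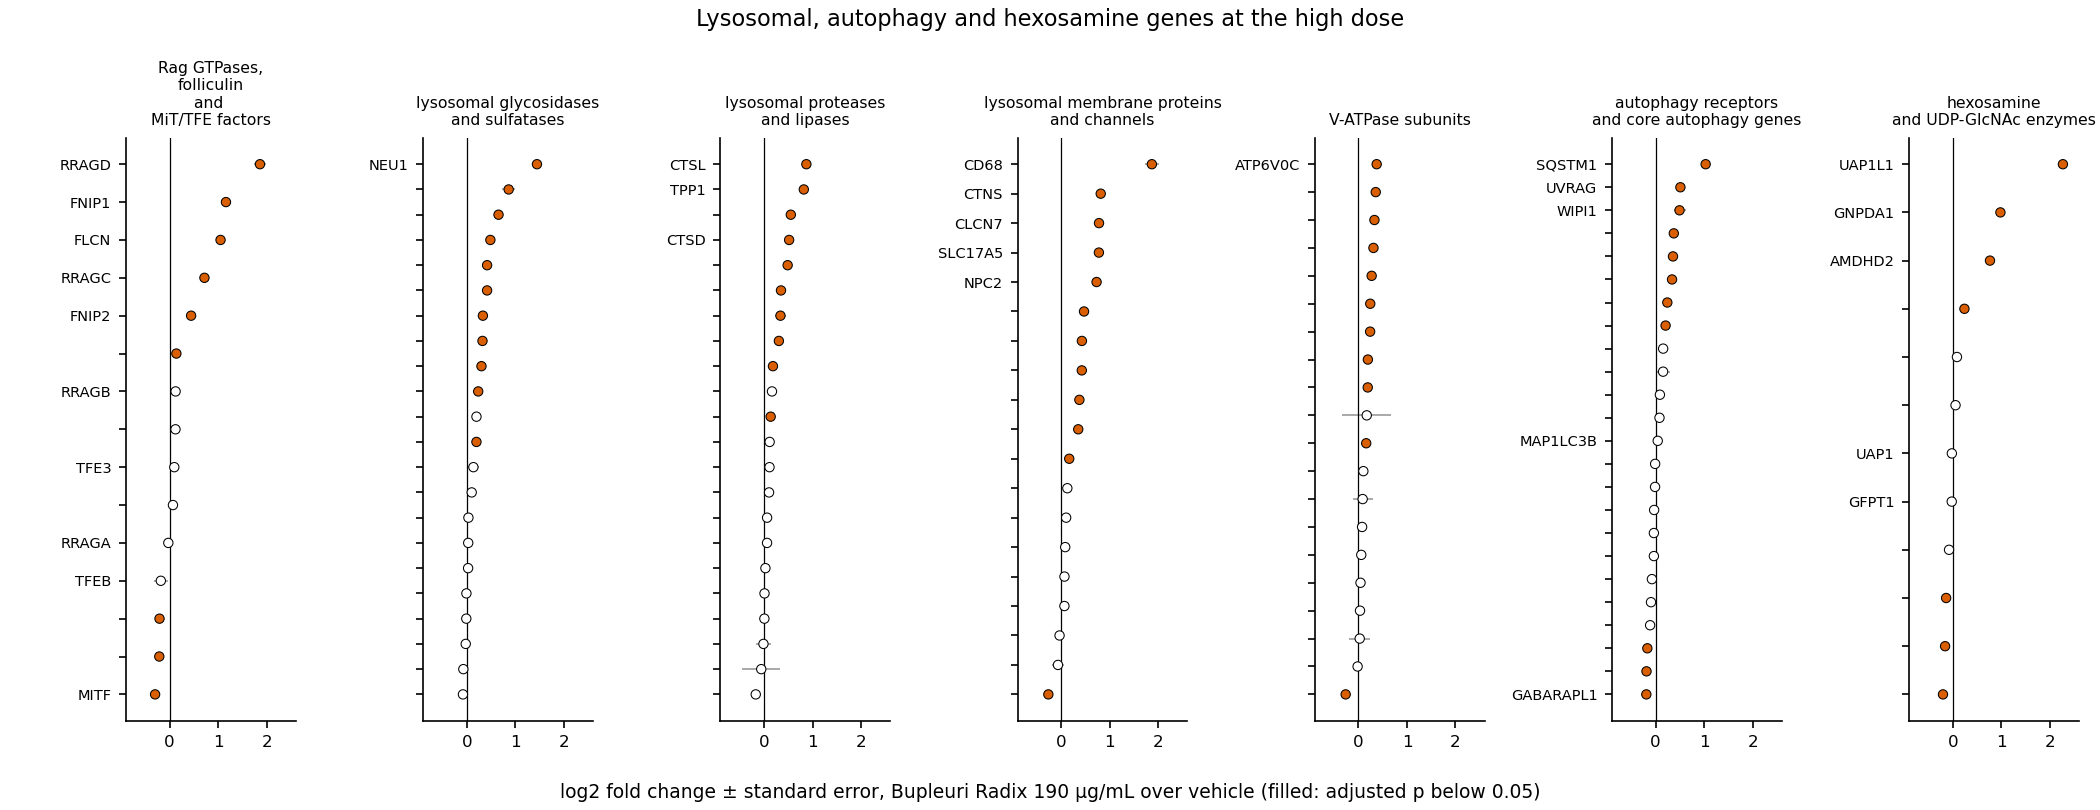
Log2 fold change of Bupleuri Radix 190 µg/mL over vehicle (horizontal) for each tested member of 7 lists by role; points are estimates, lines are standard errors and filled points have an adjusted p below 0.05, and genes named in the text are labelled. RRAGD, FNIP1, FLCN, NEU1, CD68, SQSTM1 and UAP1L1 lie at or beyond 1, and few filled points lie below 0.

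Promoters of some of these genes are shown because they hold the element that TFEB, TFE3 and MITF bind, whose core letters are TCACGTG. The core contains CACGTG, an E-box that USF and MYC proteins bind too. RefSeq promoter windows (GRCh38.p14, the 250 bases before the annotated start) were matched by symbol, and 8270 of the tested genes had exactly 1 window. The core was searched on both strands. The windows of 5 genes that rose, picked because they hold the core, follow, 5′ to 3′ in the direction of the gene, with the core, or on the other strand its complement CACGTGA, in capitals and all else in lower case.
NEU1 (chr6:31862822-31863071, minus strand): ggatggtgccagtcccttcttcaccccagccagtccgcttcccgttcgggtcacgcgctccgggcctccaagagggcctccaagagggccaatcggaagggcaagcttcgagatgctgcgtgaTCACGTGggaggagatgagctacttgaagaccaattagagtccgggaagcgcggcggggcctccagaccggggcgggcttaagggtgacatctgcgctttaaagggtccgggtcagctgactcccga
FNIP1 (chr5:131797018-131797267, minus strand): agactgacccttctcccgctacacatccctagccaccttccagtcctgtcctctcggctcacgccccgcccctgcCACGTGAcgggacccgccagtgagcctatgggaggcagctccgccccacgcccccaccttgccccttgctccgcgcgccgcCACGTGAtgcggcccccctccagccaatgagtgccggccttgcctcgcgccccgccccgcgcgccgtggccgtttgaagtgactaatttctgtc
CLCN7 (chr16:1475029-1475278, minus strand): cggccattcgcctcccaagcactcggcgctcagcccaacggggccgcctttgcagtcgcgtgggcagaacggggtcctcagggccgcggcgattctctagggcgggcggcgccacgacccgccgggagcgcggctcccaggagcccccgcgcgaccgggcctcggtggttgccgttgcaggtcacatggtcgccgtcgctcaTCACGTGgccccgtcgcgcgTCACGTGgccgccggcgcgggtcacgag
GNPDA1 (chr5:142013028-142013277, minus strand): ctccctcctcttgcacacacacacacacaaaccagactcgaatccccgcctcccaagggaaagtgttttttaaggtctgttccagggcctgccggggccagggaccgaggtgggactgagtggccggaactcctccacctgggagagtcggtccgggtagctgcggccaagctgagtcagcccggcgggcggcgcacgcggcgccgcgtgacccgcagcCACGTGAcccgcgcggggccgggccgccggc
RRAGC (chr1:38859773-38860022, minus strand): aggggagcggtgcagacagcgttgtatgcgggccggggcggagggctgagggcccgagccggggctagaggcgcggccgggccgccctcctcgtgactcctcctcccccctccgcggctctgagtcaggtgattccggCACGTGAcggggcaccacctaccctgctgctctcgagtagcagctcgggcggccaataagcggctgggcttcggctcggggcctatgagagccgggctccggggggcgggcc
With the base before the start counted as -1, the core began at -127 in NEU1, at -175 and -94 in FNIP1, at -48 and -28 in CLCN7, at -31 in GNPDA1 and at -112 in RRAGC. The core also stood before the start of CTSD at -47. The windows of CD68, FLCN, CTSL, TPP1 and SLC17A5, which rose too, hold no such letters.

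Across genes, the core was in 456 of the 8270 windows (5.51%). It was in 124 of 1089 windows of genes that rose (11.4%) and in 36 of 1242 windows of genes that fell (2.9%). Of 58 windows of genes in the lysosomal lists, 18 held it (31.0%): 13 of the 26 whose gene rose (50.0%) and 5 of the 32 whose gene did not (15.6%). Most of these lists were drawn up after the values had been seen, so these shares are descriptions. The mean G+C content was 67.2% in the windows of genes that rose, 64.7% in those of genes that fell and 64.7% over all, and its part in these shares was not tested. Other motifs were searched in the same way. The AP-1 element (TGANTCA) was in 56 of 1089 windows of genes that rose (5.14%) and in 3.91% of all windows. The AhR core (TNGCGTG) was in 7.07% of windows of genes that rose and in 6.12% of all, and the ATF4 element (TGATGNAA) in 0.643% and 1.19%. The NR4A element (AAAGGTCA) was in 1.05% of windows of genes that fell and in 0.738% of all. The SREBP element (TCACNCCAC) was in 0.918% of windows of genes that rose and in 0.822% of all, and the EGR1 element (GCGNGGGCG) in 17.4% and 14.0%. In the 176 windows of genes that rose at least 1.5-fold, the core of TFEB, TFE3 and MITF was in 23 (13.1%). The AP-1 element was in 18 of them (10.2%) and the EGR1 element in 13.6%. The AhR core was in 5.68% of these 176 windows, the ATF4 element in 1.14% and the SREBP element in none. A match is a run of letters and does not show that a factor was bound.

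**Figure D3:**
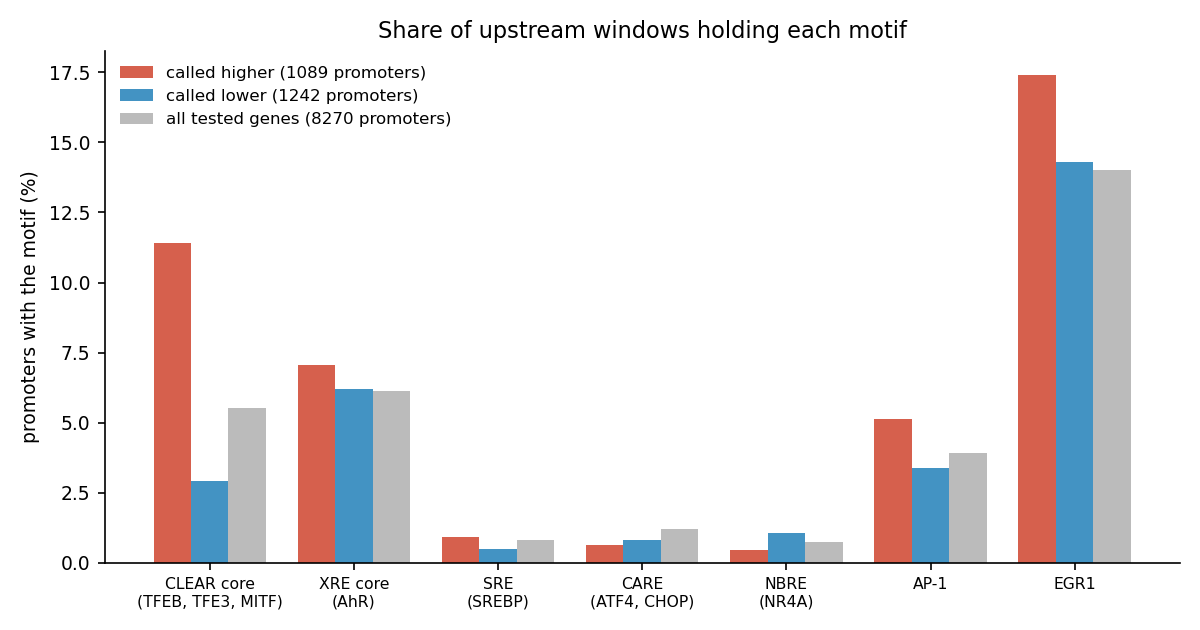
Percent of RefSeq promoter windows (vertical) that hold each of 7 motifs (horizontal), for genes that rose, genes that fell and all tested genes with 1 window. The share for the core of TFEB, TFE3 and MITF is 11.4% in genes that rose, 2.9% in genes that fell and 5.51% over all.

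All 5 tested AhR targets rose, with a median log2 fold change of 1.14, and 4 of them also rose against the low dose. CYP1B1, a cytochrome P450 that oxidizes polycyclic hydrocarbons and estrogens (ENSG00000138061, chr2:38066973-38109902), had 123, 122 and 124 CPM in the high-dose libraries, against 58.7, 55.3 and 53.2 CPM in vehicle. The groups were far apart and the log2 fold change was 1.14 ± 0.04 (adjusted p = 4.61e-12). It climbed with dose, at 55.7 CPM in vehicle and 61.4, 72.1 and 123 CPM at 7.6, 38 and 190 µg/mL, and each dose was called against vehicle. CYP1A1, the classical AhR-induced P450, stayed at a low level, with 3.09, 3.61 and 2.23 CPM at the high dose, against 0.905, 0.741 and 0.620 CPM in vehicle, a log2 fold change of 1.96 ± 0.25. AHRR, the AhR repressor, had 6.59, 5.21 and 5.29 CPM at the high dose, against 2.79, 2.57 and 2.22 CPM in vehicle. TIPARP, a mono-ADP-ribosyltransferase that also restrains AhR, had 61.5, 69.0 and 64.3 CPM at the high dose, against 35.4, 32.7 and 33.0 CPM in vehicle. Neither group of libraries overlapped the other for any of these 3 genes, and over the low dose their log2 fold changes were 1.72, 0.94 and 0.90. ALDH3A1, an aldehyde dehydrogenase that is already abundant in A549, rose by 0.34 ± 0.05 but was not called against the low dose (0.10 ± 0.05). CYP1A2 had too few counts to be tested.

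Most cholesterol synthesis genes rose, and several targets of the sterol-activated LXR receptors fell. Of 25 genes of cholesterol synthesis and uptake, 17 rose and none fell against vehicle (median log2 fold change 0.30), with 9 called in the fit of all 59 libraries, and 20 rose and none fell against the low dose (median 0.28). The low dose itself had 1 higher and 5 lower than vehicle. MVK, mevalonate kinase, averaged 32.4 ± 1.36 CPM at the high dose and 22.9 ± 2.19 CPM in vehicle. DHCR7, which makes cholesterol from 7-dehydrocholesterol, averaged 132 ± 7.45 CPM at the high dose and 93.5 ± 1.70 CPM in vehicle. LSS, lanosterol synthase, averaged 55.3 ± 2.00 CPM at the high dose and 39.7 ± 1.08 CPM in vehicle. All 3 rose by less than 1.5-fold. The squalene epoxidase SQLE had 174, 177 and 175 CPM in the high-dose libraries, against 136, 124 and 128 CPM in vehicle, with no overlap. INSIG1, which holds back SREBP processing, rose by 0.37 ± 0.05 against vehicle and by 0.59 ± 0.05 against the low dose. HMGCS1, an early enzyme of the path, was level with vehicle (202 ± 9.51 and 203 ± 4.52 CPM) and above the low dose by 0.19 ± 0.04. The SREBP genes moved apart: SREBF2 rose by 0.36 ± 0.04 and SREBF1 fell (-0.22 ± 0.05).

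Of 7 LXR targets, 3 fell and none rose against vehicle, and 5 fell and none rose against the low dose. The fit of all 59 libraries called 1 lower. ABCA1, which exports cholesterol to apolipoproteins, had 5.47, 5.61 and 5.25 CPM in the high-dose libraries, against 11.2, 10.4 and 7.24 CPM in vehicle. One vehicle library was lower than the others, but all 3 still lay above the high dose (log2 fold change -0.84 ± 0.14). MYLIP, a ubiquitin ligase that degrades the LDL receptor, had 2.46, 2.59 and 2.68 CPM at the high dose, against 5.59, 5.15 and 5.58 CPM in vehicle, with a log2 fold change of -1.07 ± 0.11. ABCG1, a second sterol exporter, was near the detection limit at 0.256 CPM at the high dose and 0.451 CPM in vehicle, and was called against the low dose only (-1.45 ± 0.33, adjusted p = 0.0075; against vehicle -0.81 ± 0.37, adjusted p = 0.121). Fatty acid synthesis was mixed, with 5 of 10 genes higher and 2 lower, and 5 higher already at the low dose; with all 59 libraries 2 were called higher and none lower. Among 7 tested genes of fatty acid oxidation and PPAR targets, 4 rose and 2 fell. PLIN2, the coat protein of lipid droplets, averaged 29.3 ± 1.02 CPM at the high dose and 15.7 ± 1.15 CPM in vehicle. PDK4, a kinase that inhibits pyruvate dehydrogenase, averaged 40.0 ± 1.78 CPM at the high dose and 23.9 ± 2.39 CPM in vehicle. CPT1A, the gate of fatty acid import into mitochondria, averaged 94.1 ± 3.04 CPM at the high dose and 67.4 ± 0.770 CPM in vehicle. These 3 rose against the low dose as well, by 0.92, 0.50 and 0.43 on the log2 scale. ANGPTL4, a PPAR target, fell (-0.27 ± 0.07).

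Stress genes changed in part, and some of the counts are near the shares over all tested genes. These shares were 13.4% higher and 12.8% lower against vehicle, and 5.6% and 4.26% against the low dose. Of 25 targets of ATF4, the factor of the integrated stress response, 8 rose and 3 fell against vehicle, and 9 rose and 1 fell against the low dose. DDIT3, the pro-apoptotic factor CHOP, had 17.1, 17.8 and 17.4 CPM in the high-dose libraries, against 9.05, 11.8 and 10.0 CPM in vehicle. STC2, a secreted stanniocalcin, averaged 48.1 ± 2.88 CPM at the high dose and 28.5 ± 2.16 CPM in vehicle. TRIB3, a pseudokinase, averaged 110.1 ± 2.93 CPM at the high dose and 70.1 ± 3.39 CPM in vehicle. The 3 genes rose with no overlap between groups, and over the low dose by 0.90, 0.85 and 0.81 on the log2 scale, while the amino acid enzymes ASNS (-0.10), PSAT1 (-0.08) and PHGDH (-0.10) were not called and the transporter subunits SLC7A5 (-0.22 ± 0.05) and SLC3A2 (-0.29 ± 0.05) fell. The C/EBP factor CEBPB rose by 0.83 ± 0.11, but it was higher than vehicle at the low dose too (0.61 ± 0.11). Chaperone genes moved in both directions: of 20 genes of the unfolded protein response 3 rose and 5 fell, and of 15 heat shock genes 1 rose and 6 fell, with 1 and none of these higher and 2 and none lower against the low dose. Without high-dose replicate 1 or 2 or vehicle replicate 3 only 2 genes of the unfolded protein response were called lower, and without high-dose replicate 2 or vehicle replicate 1 only 1 higher. Of 22 p53 targets 3 rose, about the share of all tested genes, and 8 fell. Against the low dose 3 rose and none fell. GDF15, a stress-induced cytokine, had 42.2, 44.4 and 40.0 CPM at the high dose, against 22.3, 23.1 and 24.7 CPM in vehicle, and stood out from CDKN1A (-0.20 ± 0.04) and MDM2 (-0.30 ± 0.05), which fell. Targets of NRF2, a transcription factor of the oxidant response, were split, 5 higher and 8 lower of 17. Without high-dose replicate 1 or 2 or vehicle replicate 2, 3 were higher. Against the low dose 3 rose and 2 fell, and the low dose against vehicle had 2 higher and 3 lower. Heme oxygenase HMOX1 had 222, 239 and 226 CPM at the high dose, against 169, 162 and 179 CPM in vehicle, and the ferritin light chain FTL 12777, 11196 and 11552 CPM, against 7676, 7395 and 8401 CPM. Both rose, by 0.43 and 0.60 on the log2 scale, while NQO1 was not called (-0.05). FTL was higher than vehicle at the low dose too (0.32 ± 0.07), and the high dose exceeded the low dose by 0.28 ± 0.07. HMOX1 was lower than vehicle at the low dose (-0.26 ± 0.05), and the high dose exceeded the low dose by 0.69 ± 0.05. A549 is known to carry an inactive KEAP1, the inhibitor of NRF2. Of 4 tested metallothionein and zinc genes, MT2A rose (0.26 ± 0.07) and the zinc exporter SLC30A1 fell (-0.46 ± 0.06). SLC30A1 was not called between the high and the low dose (-0.09 ± 0.06), so for it an effect of the extract and a difference between the library sets cannot be told apart. In the fit of all 59 libraries 3 ATF4 targets were called higher and none lower, 1 p53 target higher and none lower, 2 NRF2 targets higher and none lower, 1 gene of the unfolded protein response lower and 2 heat shock genes lower.

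Genes of growth factor and inflammatory signalling rose in larger part. Of 21 tested MAPK and immediate early genes 11 rose and 2 fell, and against the low dose 10 rose and 1 fell. FOSL1, the AP-1 subunit FRA-1, had 50.03, 54.7 and 40.5 CPM in the high-dose libraries, against 26.8, 28.8 and 27.9 CPM in vehicle. FOSB had 2.38, 2.95 and 1.60 CPM at the high dose, against 1.34, 1.34 and 1.03 CPM in vehicle. Neither overlapped vehicle, and with EGR1 they were the largest rises of the list. FOS itself was not called (0.24) and JUNB fell (-0.25 ± 0.07). Of 5 tested EGFR ligands, TGFA (0.45 ± 0.09) and EREG (0.22 ± 0.05) rose. Of 16 tested NF-kB and inflammatory genes 10 rose and 1 fell, and against the low dose 7 rose and 1 fell. The neutrophil chemokine CXCL8 had 1.71, 2.80 and 1.71 CPM at the high dose, against 0.905, 0.811 and 1.40 CPM in vehicle, and CXCL2 3.84, 4.26 and 3.98 CPM, against 2.64, 2.47 and 2.27 CPM. Both are low in these cells, and all high-dose libraries lay above vehicle. The cytokine IL11 fell (-0.64 ± 0.07). In the fit of all 59 libraries 2 members of the MAPK list, 2 of the NF-kB list and none of the EGFR ligands were called higher, and with 55 libraries 7, 6 and 1. The NR4A orphan receptors, which are also immediate early genes, went the other way. NR4A3 (ENSG00000119508, chr9:99821855-99866891) had 3.55, 3.71 and 4.02 CPM at the high dose, against 8.81, 9.63 and 7.86 CPM in vehicle. NR4A1 had 21.7, 20.5 and 20.0 CPM at the high dose, against 38.4, 36.0 and 39.9 CPM in vehicle. Both fell with no overlap, with log2 fold changes of -1.23 and -0.87, and NR4A2 was called against the low dose (-0.59 ± 0.13) but not against vehicle (-0.35 ± 0.14, adjusted p = 0.0668).

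Fibrinogen genes and several epithelial genes fell. The 3 chains of fibrinogen, the precursor of the blood clot, lie next to each other on chromosome 4 and are made by A549 cells at a moderate level. FGB (ENSG00000171564, chr4:154562956-154571086) had 73.7, 64.3 and 92.7 CPM in the high-dose libraries, against 158, 159 and 167 CPM in vehicle. FGA had 79.4, 68.6 and 92.8 CPM at the high dose, against 150.2, 146 and 155 CPM in vehicle. FGG had 43.9, 36.7 and 52.0 CPM at the high dose, against 85.0, 77.1 and 97.1 CPM in vehicle. In each case the highest high-dose library was below the lowest vehicle library, and the log2 fold changes were -1.07 ± 0.08, -0.90 ± 0.07 and -0.96 ± 0.10. The low dose was level with vehicle and the medium dose lay between, at 171 and 146 CPM for FGB. Of 10 acute-phase and coagulation genes in all, 4 fell and 1 rose, and the same counts were found against the low dose.

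Among 10 tested A549 and lung epithelial markers 6 fell and 1 rose, and 6 fell and none rose against the low dose. TM4SF4, a tetraspan membrane protein, had 9.43, 10.3 and 10.6 CPM in the high-dose libraries, against 22.2, 21.6 and 24.5 CPM in vehicle. KRT18 had 1647, 1753 and 1714 CPM at the high dose, against 2686, 2612 and 2881 CPM in vehicle. KRT8 had 2420.2, 2523 and 2556 CPM at the high dose, against 3610.4, 3489.8 and 3474 CPM in vehicle. These 2 keratins pair in simple epithelia and fell with log2 fold changes of -0.68 ± 0.05 and -0.50 ± 0.05. The annotated ends of their genes overlap on opposite strands. KRT4, a keratin of stratified epithelium, fell to 12.7 CPM, against 28.6 CPM in vehicle. SULT2B1, a sulfotransferase for cholesterol, fell to 11.1 CPM, against 24.7 CPM in vehicle. H19, an imprinted long noncoding RNA, had 42.7, 35.5 and 49.5 CPM at the high dose, against 84.0, 79.0 and 93.5 CPM in vehicle, with no overlap. At lower levels, C1orf116 (-1.06 ± 0.10) and the integrin ITGB6 (-0.92 ± 0.11) fell with no overlap. E-cadherin (CDH1) fell (-0.35 ± 0.05), while KRT7 was not called (-0.08). Of 12 tested genes of the cytoskeleton and SRF 8 fell and none rose, led by the actin-binding TAGLN (-0.53 ± 0.06). Of 16 TGF-beta and mesenchymal genes 8 fell and 1 rose, with thrombospondin THBS1 at -0.43 ± 0.05, and of 9 YAP targets 5 fell and none rose, with AJUBA at -0.58 ± 0.04. Against the low dose these 3 lists had 7, 7 and 4 members lower and none, 1 and 1 higher. With all 59 libraries in the fit the epithelial markers had 3 called lower, the cytoskeleton list 2, the TGF-beta list none and the YAP list 1, and with 55 libraries 5, 6, 6 and 4.

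Many proliferation genes fell slightly. Of 29 DNA replication genes 16 fell and none rose, and of 25 genes of G2/M and mitosis 15 fell and 1 rose, with median log2 fold changes of -0.15 in both lists. TK1, thymidine kinase, averaged 116.1 ± 2.69 CPM at the high dose and 152 ± 5.05 CPM in vehicle. GINS1, a subunit of the replicative helicase, averaged 68.5 ± 1.12 CPM at the high dose and 87.5 ± 1.72 CPM in vehicle. CDK1, the mitotic kinase, averaged 113 ± 4.82 CPM at the high dose and 153 ± 6.64 CPM in vehicle. Against the low dose TK1 was called (-0.21 ± 0.04), but GINS1 (-0.13 ± 0.05) and CDK1 (-0.15 ± 0.06) were not. GINS1 and CDK1 were called below vehicle at the low dose too (-0.22 ± 0.04 and -0.29 ± 0.06). For these 2 genes an effect of the extract and a difference between the library sets cannot be told apart. The helicase subunit MCM2 was not called (-0.01), and MKI67 rose (0.23 ± 0.07) with overlapping groups. Part of this was present at the low dose, where 6 replication and 5 mitosis genes were below vehicle, and against the low dose 5 and 6 fell. With all 59 libraries in the fit 4 replication and 2 mitosis genes were called lower, and with 55 libraries 15 and 11.

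Some groups differed from vehicle at every dose and hardly between doses. Of 13 mitochondrially encoded mRNAs 11 rose and none fell against vehicle, while none was called against the low dose; the low dose had 10 and the medium dose 11 above vehicle. MT-ND1, a subunit of complex I, had 6094, 5969 and 5342 CPM in the high-dose libraries, against 3992, 3363 and 4716 CPM in vehicle. It averaged 5766 CPM at 7.6 µg/mL and 5673 CPM at 38 µg/mL, and the log2 fold change of the high over the low dose was 0.01 ± 0.11. Mitochondrial RNA of all kinds took 10.0% to 11.1% of the counts at the high dose, 9.96% to 10.8% at the low dose and 7.79% to 8.54% in vehicle. Of 20 ribosomal proteins 9 fell, of 24 nuclear-encoded respiratory chain genes 8 fell and none of either list rose, and none was called against the low dose. RPLP0 averaged 1493 ± 59.2 CPM at the high dose and 1774 ± 114 CPM in vehicle, with 1522 CPM at 7.6 µg/mL. The mitochondrial chaperone HSPD1 averaged 1198 ± 26.9 CPM at the high dose and 1511 ± 33.4 CPM in vehicle, with 1214 CPM at 7.6 µg/mL. For these groups an effect of the extract at every dose and a difference between the library sets cannot be told apart. In the fit of all 59 libraries none of the mitochondrial mRNAs or ribosomal proteins was called, and with 55 libraries 1 and none. Leaving out high-dose replicate 1 or vehicle replicate 2 left 7 mitochondrial mRNAs called, and leaving out high-dose replicate 2 left 5 ribosomal proteins.

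**Figure D4:**
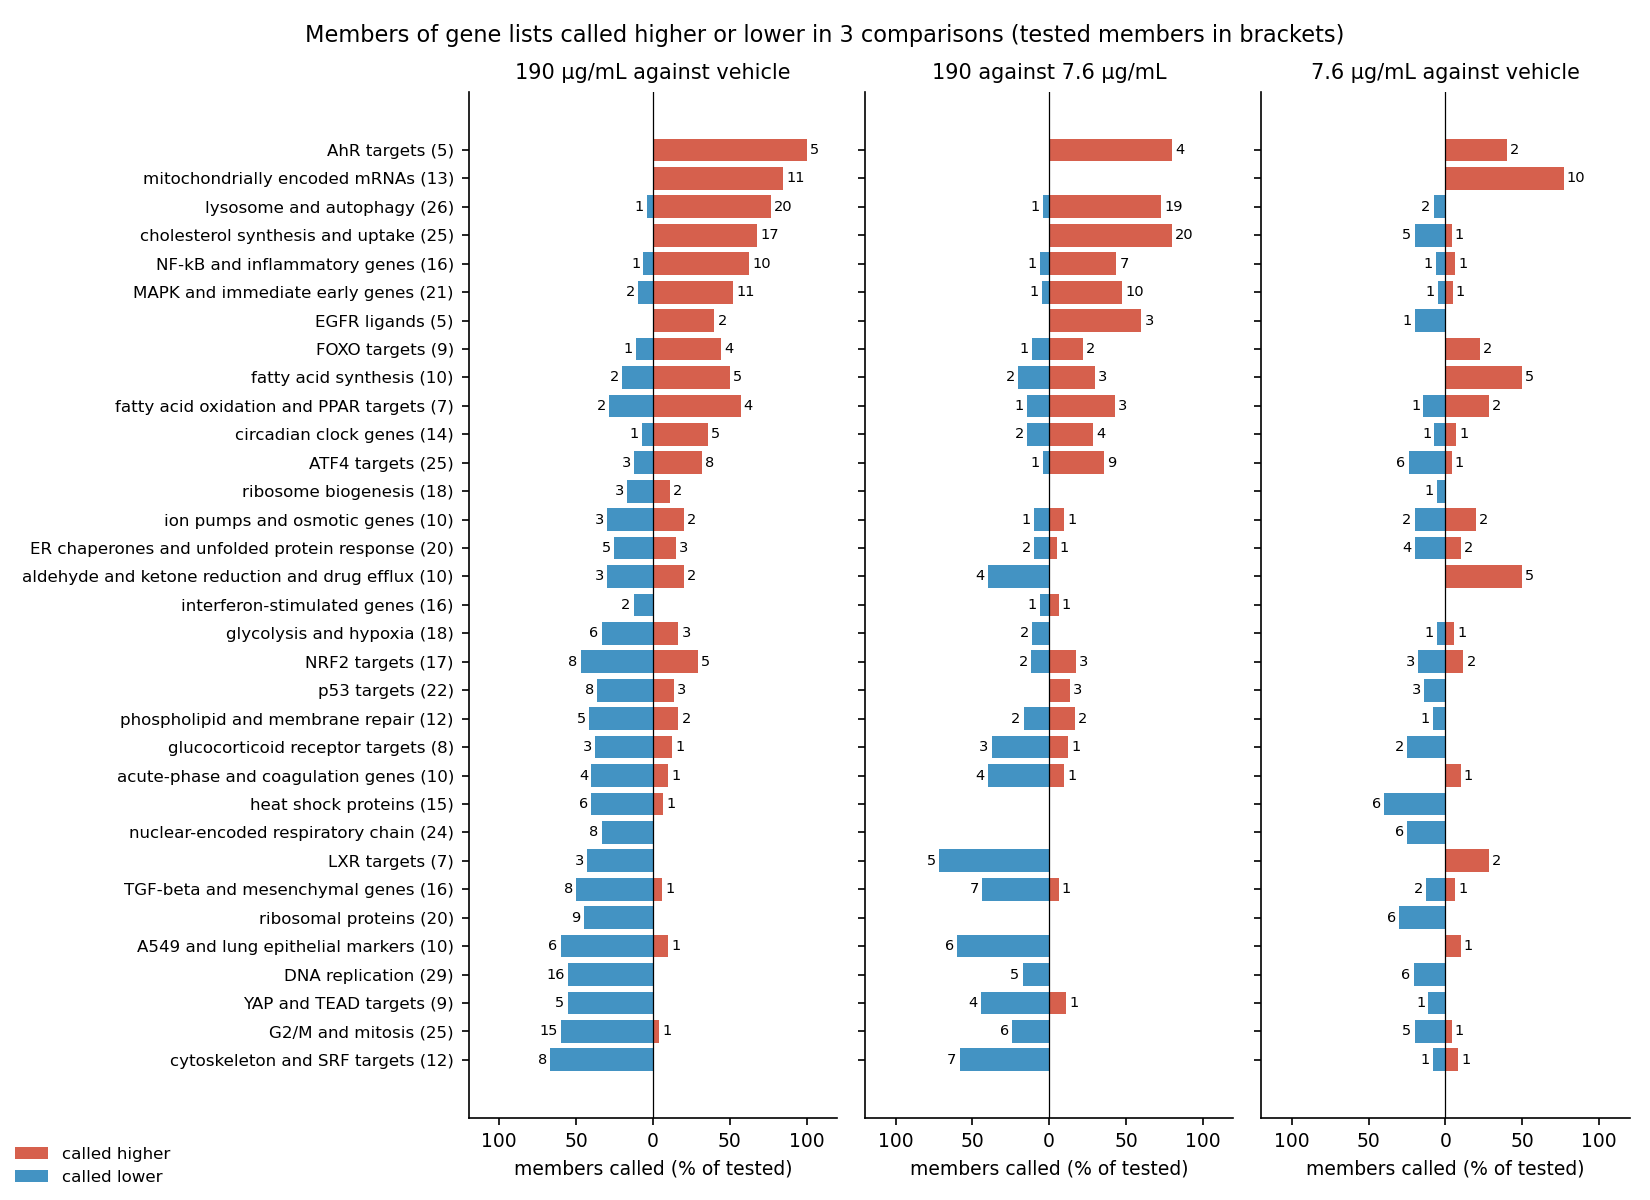
Percent of the tested members of 33 gene lists called higher (red, right) or lower (blue, left) in 3 comparisons, with the number called beside each bar. Most members of the lysosome and autophagy, cholesterol and AhR lists are called higher at 190 µg/mL against vehicle and against 7.6 µg/mL (20 and 19, 17 and 20, 5 and 4), while the mitochondrially encoded mRNAs are called at 190 and at 7.6 µg/mL against vehicle (11 and 10) and not between the doses.

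Some of the largest single differences were also present at the low dose. EIF3CL, a near-identical copy of the translation factor gene EIF3C, had 31.8, 92.6 and 32.6 CPM at the high dose, against 9.84, 6.42 and 6.10 CPM in vehicle, and 44.9, 17.9 and 81.5 CPM at the low dose. Its libraries differ several-fold within a group, and reads of the pair can be shared between them by the counting method, so its value is uncertain. The processed pseudogene UQCRFS1P1 averaged 6.02 ± 0.0867 CPM at the high dose, 5.78 CPM at the low dose and 1.37 ± 1.05 CPM in vehicle. The hair keratin KRT86, 1 of a cluster of near copies, averaged 18.5 ± 6.18 CPM at the high dose, 16.5 CPM at the low dose and 39.1 ± 8.34 CPM in vehicle. None of the 3 was called between the high and the low dose. C4orf48 had 6.38, 5.46 and 11.8 CPM at the high dose, against 2.68, 2.72 and 4.29 CPM in vehicle, and was not called against the low dose either (0.55 ± 0.27).

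The other lists moved less or in both directions, and several counts are near the shares over all tested genes. These were 13.4% higher and 12.8% lower against vehicle, and 5.6% and 4.26% against the low dose. Of 14 tested clock genes 5 rose and 1 fell: NR1D1, the repressor REV-ERB alpha, rose (0.68 ± 0.09) and PER2 fell (-0.55 ± 0.06), and both were called against the low dose. Without vehicle replicate 2, 3 clock genes rose. Of 9 tested FOXO targets 4 rose and 1 fell, led by the ubiquitin ligase subunit FBXO32 (0.90 ± 0.13) and the cyclin CCNG2 (0.79 ± 0.13), and 2 rose and 1 fell against the low dose. Of 8 tested glucocorticoid receptor targets 1 rose and 3 fell, with KLF9 at -0.59 ± 0.12, and 1 rose and 3 fell against the low dose. Of 16 tested interferon-stimulated genes none rose and 2 fell, and neither fall was called in the fits of 59 or 55 libraries and at most 1 when 1 library was left out; against the low dose 1 rose and 1 fell. Of 18 glycolysis and hypoxia genes 3 rose and 6 fell, and against the low dose none rose and 2 fell. Of 18 ribosome biogenesis genes 2 rose and 3 fell, and none was called against the low dose. Of 12 phospholipid and membrane repair genes 2 rose and 5 fell, and 3 fell without high-dose replicate 2 or vehicle replicate 2 or 3. Against the low dose 2 rose and 2 fell. Of 10 ion pump and osmotic genes 2 rose and 3 fell, with the taurine transporter SLC6A6 rising most (0.65 ± 0.05), and 1 rose and 1 fell against the low dose. Of 10 genes of aldehyde reduction and drug efflux 2 rose and 3 fell, and none rose and 4 fell against the low dose. Only 3 of 10 PXR and CAR targets could be tested, of which CYP3A5 rose (0.75 ± 0.19) without a call against the low dose (0.19 ± 0.18). Among the 4 tested markers of other cell types COL3A1 fell (-1.02 ± 0.20) and GFAP rose (0.80 ± 0.28), each at under 2 CPM, and GFAP lost its call in 10 of 13 alternatives. With all 59 libraries in the fit, 3 FOXO, 1 clock and 1 PXR target were called higher, and 1 glucocorticoid, 1 glycolysis, 1 membrane repair and 1 aldehyde gene lower, with no call in the ion pump and ribosome biogenesis lists.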

How the data were processed

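RNA of A549 cells was sequenced as strand-specific mRNA libraries with paired-end reads, per the labels' protocols. The deposited table holds expected counts per gene, which the authors made, per the submitters' processing notes, with STAR 2.7.3a and RSEM 1.3.3 on hg38 (GRCh38) after FastQC 0.11.9 and Trim Galore 0.6.5. RSEM shares reads that match several genes among them, so near copies can take each other's reads. The annotation release used for counting, and its strand setting, are not given in the sources used here. 210 columns of the table match no sample used here and were left out.

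Expected counts were rounded to whole numbers and fitted with edgeR 4.0.16 (R 4.3.3): TMM scaling, the expression filter at 10 counts in a library and 15 in all, the quasi-likelihood F test with 1 mean per group, and Benjamini-Hochberg adjustment over all 16439 genes tested. The fit held 12 libraries, the 3 doses of Bupleuri Radix and vehicle, with 19320235 to 33916628 counts each. CPM values are counts scaled to TMM library size, with no correction for length. A gene was called at an adjusted p below 0.05. The test was also run on counts simulated with the spread of this fit. Of 168 calls there, 16 were false. Of 50 genes changed 1.3-fold 56% were recovered, and of 50 changed 2-fold 86%. Alternatives were RLE scaling, DESeq2 1.42.0, no expression filter, other sets of libraries, leaving out each library, and a replicate block. This fit was kept to the extract and vehicle because earlier work on these data found 4 libraries of other extracts to stand apart.

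The groups, the 37 gene lists and the rules were chosen with earlier results of these data known, and 7 more lists, the motifs and the genes in the closing observations were chosen after seeing the values. Named genes were the 12 largest rises and 12 largest falls with libraries that do not overlap and 5 CPM or more on average in whichever group was higher, and up to 3 called genes and the first gene of each list; some of these were left out for length, and other list members were added after their values had been seen. Gene positions are from GENCODE 29 (GRCh38), and promoter windows are RefSeq's (GRCh38.p14). No sample failed to map to a group. Single-gene values of some list members are not reported here.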

Additional observations from a re-analysis of the deposited data

How the results depend on the processing

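RLE scaling, DESeq2, no expression filter, only the groups compared and library set 13 with vehicle left the counts of called genes within 1.5 times of those reported, apart from the genes changed at least 2-fold, which numbered 85 with DESeq2 and 339 without the filter, against 205 as reported. With all 59 libraries in the fit 624 genes differed between the high dose and vehicle, 88 of them at least 2-fold, 294 between the high and low dose and 0 between the low dose and vehicle (edgeR; 1367 at an unadjusted p below 0.05, and 1925 called by DESeq2 on 12 libraries). Without 4 libraries of other extracts these counts were 2623, 1019 and 540. The share of higher calls for the high dose was 61.1% with 59 libraries and 51.2% as reported, and that for the low dose was 26.7% with 55 libraries and 43.8% as reported. Leaving out 1 library gave 3051 to 4105 genes for the high dose against vehicle, 170 to 213 of at least 2-fold, 1171 to 1603 for the high against the low dose and 904 to 1922 for the low dose against vehicle, with 904 without vehicle replicate 2, 1280 without vehicle replicate 3 and 1022 without low-dose replicate 1. Deviations from the group mean had correlations of 0.02, -0.02 and 0.04 between same-numbered high-dose and vehicle libraries. Between same-numbered low-dose and vehicle libraries they were 0.08, 0.06 and 0.06. With 3 libraries per group such values cannot decide whether the numbers pair libraries. With the number as a replicate block the counts were 4417, 205, 1678 and 2179. Of 195 named genes, 169 were called, 80 of these lost the call under at least 1 of 14 alternatives, 5 others gained one and none changed direction in a called value. Depth limits genes near 1 CPM, such as CYP1A1 and ABCG1, whose levels rest on few counts.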

Other observations

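Some genes outside the lists rose as well; they were picked after their values had been seen and stand for no group. STX3, a syntaxin of the apical plasma membrane, had 22.1, 23.6 and 23.1 CPM in the high-dose libraries, against 10.5, 9.35 and 10.6 CPM in vehicle, a log2 fold change of 1.18 ± 0.07. HS1BP3, a HCLS1-binding protein, had 52.6, 55.4 and 51.5 CPM at the high dose, against 24.3, 21.9 and 22.0 CPM in vehicle. FA2H, the fatty acid 2-hydroxylase of sphingolipid synthesis, had 40.1, 42.8 and 38.8 CPM at the high dose, against 17.98, 18.4 and 19.6 CPM in vehicle. The libraries of the groups did not overlap for any of these 3, and all were called against the low dose too (1.09, 1.10 and 0.87). The small GTPase RAB29 rose by 0.94 ± 0.07 and the lysosomal channel MCOLN3 by 0.91 ± 0.12. The thrombin receptor F2R averaged 117.8 ± 4.69 CPM at the high dose and 69.4 ± 4.01 CPM in vehicle, and its relative F2RL1 averaged 197 ± 15.5 CPM and 117 ± 3.82 CPM. PTGES, which makes prostaglandin E2, averaged 31.9 ± 2.54 CPM at the high dose and 18.4 ± 1.03 CPM in vehicle.

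Further genes outside the lists, picked in the same way, fell. HNF4A, a nuclear receptor of hepatic and gut epithelium, had 74.98, 66.3 and 77.7 CPM in the high-dose libraries, against 110.2, 108 and 107 CPM in vehicle, a log2 fold change of -0.57 ± 0.05. Vitronectin (VTN) had a log2 fold change of -0.73 ± 0.06 and complement C5 one of -0.45 ± 0.05. AGR2, a disulfide isomerase of mucus-secreting cells, averaged 137 ± 17.4 CPM at the high dose and 194 ± 16.3 CPM in vehicle. DIO2, a thyroid hormone deiodinase, had 37.9, 38.9 and 39.3 CPM at the high dose, against 70.5, 69.8 and 63.9 CPM in vehicle. The cyclin CCND3 averaged 148 ± 6.11 CPM at the high dose and 248 ± 9.28 CPM in vehicle, and the small MAF factor MAFK averaged 109 ± 9.65 CPM and 191 ± 0.504 CPM. Each was called against the low dose as well, with log2 fold changes from -0.84 (VTN) to -0.47 (C5).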
